A study of Mus musculus with 76 samples.

Results

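Cigarette smoke and control exposure were compared in alveolar septa of wild-type mice after 8 months. The 10 arrays of this comparison were chosen by sample title, 5 from smoke-exposed and 5 from control mice, out of 76 single-colour Agilent arrays of the whole study. The study took septa and vessels by microdissection from the lungs of 40 wild-type or Noxo1 knockout mice after 3 or 8 months. The protein NOXO1 organises the NADPH oxidase complex around NOX1. Each of the 10 arrays carries the number of a different mouse, so the replicates are animals. Smoke-exposed wild-type mice breathed smoke of Kentucky research cigarettes at 140 mg of particles per m3, 6 hours daily and 5 days weekly, starting at week 12 of age. Control wild-type mice are called control in the labels, and what air they breathed is not stated. The growth text of the labels names the line C57BL/6-Noxo1(tm1881_17.2Arte) for all samples alike, so the wild-type status rests on the titles. The sex of the mice is not given in the labels. A word of the source names is garbled in such a way that control septa also carry the term for smoke exposure there, and the groups were therefore taken from the titles.

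Alveolar septa are the thin walls between air spaces, built from type 1 and type 2 pneumocytes, capillary endothelium and fibroblasts, with macrophages lying on them. Polycyclic compounds of tobacco smoke bind the aryl hydrocarbon receptor, which pairs with ARNT and switches on Cyp1a1 and other genes of xenobiotic metabolism. Oxidants release NRF2 from KEAP1, and NRF2 drives antioxidant enzymes. Lasting exposure is known to bring lipid-laden macrophages, neutrophils and elastin-cutting proteases into the lung, the setting in which emphysema develops.

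The dissection was checked against tissue markers fixed for septa and vessels. The smooth muscle actin gene Acta2 lay between 6.08 and 10.58 log2 units in the 10 septa arrays and between 14.55 and 15.13 in the 9 wild-type vessel arrays of the same age. Myh11, the smooth muscle myosin gene, lay between 3.18 and 6.94 in septa and between 10.75 and 12.23 in vessels. The type 1 pneumocyte gene Ager lay between 9.38 and 11.47 in septa and between 6.06 and 9.37 in vessels, so these ranges did not overlap. Sftpc, which encodes surfactant protein C of type 2 pneumocytes, reached 14.92 to 15.44 in septa and 13.57 to 14.95 in vessels, with a small overlap. The ranges of Hopx, Lamp3 and Gpihbp1 overlapped as well, Hopx at 9.81 to 11.46 in septa and 7.15 to 10.15 in vessels, Lamp3 at 10.11 to 11.49 in septa and 8.27 to 10.50 in vessels, and Gpihbp1 at 10.25 to 11.60 in septa and 7.26 to 10.35 in vessels. Ednrb did not tell the tissues apart, with medians of 8.88 in septa and 8.82 in vessels. The values are log2 signals, and levels of different genes cannot be set against each other because each feature binds its own target. Odorant and vomeronasal receptor genes, which are mostly silent outside sensory tissue, gave a guide to low signal. The 95th percentile of their 1326 means was 3.26, and 61.4% of the 20710 genes tested lay above it. Where a group lies under 3.26, the size of a difference is uncertain.

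Sex-linked genes did not split evenly between the groups. Xist, the RNA of the inactive X chromosome, stood above the Y-linked genes in 3 of 5 smoke-exposed arrays (replicates 2, 4 and 5) and in 1 of 5 control arrays (replicate 4). That control array is numbered mouse 29, and its septa had Xist at 12.48 whereas the vessel array with the same mouse number had Xist at 3.45 and the Y-linked Eif2s3y at 8.88. Mouse 7, a knockout control, showed the opposite arrangement, with Xist at 2.07 in septa and 12.92 in vessels. Whether arrays of mice 7 and 29 were exchanged in 1 tissue was not tested; an exchange of septa would put knockout tissue among the controls. Noxo1 was at 2.41 in control replicate 4 and between 1.39 and 4.98 in the other control septa of the group, and at 3.63 in the septa of mouse 7. In the vessel arrays it was at 7.03 for mouse 7 and at 5.88 for mouse 29; the part of the gene deleted in the knockout is not known here, so these values check no label. Results are therefore given with all 10 arrays. Values without control replicate 4 or with the sex pattern as a covariate are added for some of the genes and lists.

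No gene passed Benjamini-Hochberg adjustment over the 20710 genes in limma, and the lowest adjusted p was 0.734. At an unadjusted p under 0.05 there were 1199 genes (5.79%), 543 of them with a positive difference of smoke minus control (2.62%) and 656 with a negative one (3.17%). The signals of the groups did not overlap for 167 genes (0.806%), 78 with all smoke-exposed arrays above all control arrays (0.377%) and 89 the other way (0.43%). Without control replicate 4 the count at an unadjusted p under 0.05 was 1406 (6.79%), and with the sex pattern as a covariate it was 1151 (5.56%), again with no gene past adjustment. The median standard error of a difference was 0.472 log2 units, and the median half-width of its 95% interval was 0.963; this is the precision that 5 arrays a group gave. The exact two-sided permutation test of 5 against 5 arrays cannot go below a p of 0.00794, and after adjustment over all genes its lowest value was 0.918, with 0 genes under 0.05. All differences below are accordingly values that did not pass the test across genes. The median difference over all genes was -0.04, with 9563 genes above 0 and 11147 below it. The sign counts of the gene lists below are to be set beside these. Features without a gene symbol, fitted apart, gave 0 of 31125 past adjustment and 1686 at an unadjusted p under 0.05 (5.42%).

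**Figure D1:**
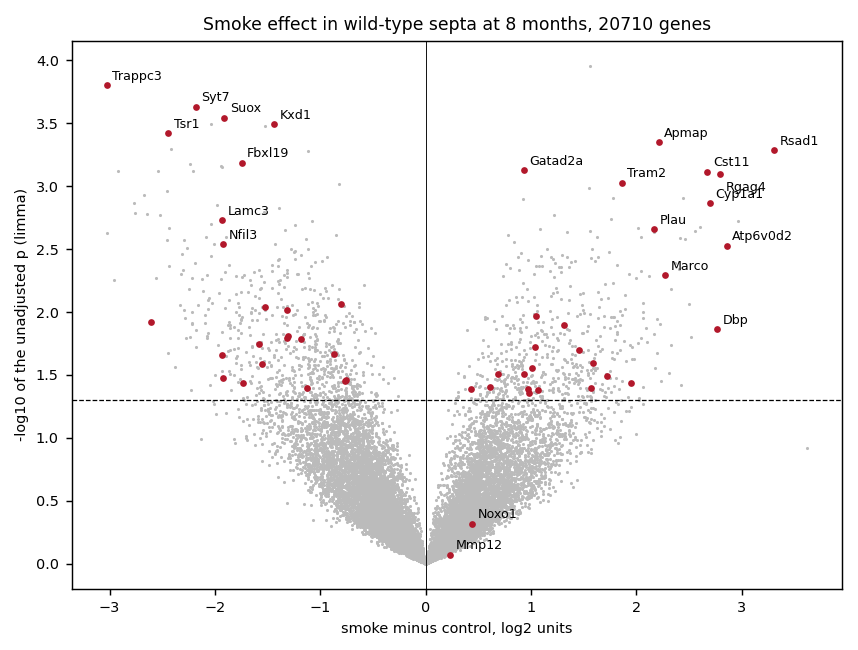
Difference of smoke minus control (x axis, log2 units) against -log10 of the unadjusted limma p (y axis) for 20710 genes (grey), with the 53 named genes in red. The dashed line marks an unadjusted p of 0.05. No point passes adjustment, and Noxo1 and Mmp12 lie far below the line.

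The 53 genes named were set by rule: the 6 of lowest p in each direction among genes above the receptor guide, up to 3 members of each gene list at an unadjusted p under 0.05, and Noxo1, Cyp1a1, Marco and Mmp12 in any case. Because a low p chose most of them, their differences describe these arrays and do not stand as independent tests. For 8 of the 53 the groups did not overlap, against 0.806% of all genes. Groups without overlap always give the smallest exact permutation p, so that p adds nothing for these 8. All 53 kept their direction without control replicate 4, and 52 kept it with the sex pattern as a covariate, the exception being Mmp12. A change of sign was unlikely for genes chosen by a low p, so these counts lend them no support.

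Among the genes of lowest p with a positive difference, Apmap encodes a membrane protein known from adipocyte differentiation. It had log2 signals of 7.06, 7.86, 8.15, 7.42 and 7.85 in smoke-exposed septa, against 4.59, 3.35, 6.68, 5.90 and 6.76 in control septa. Every smoke-exposed array lay above every control array, and the difference was 2.21 ± 0.58 (SE; limma adjusted p = 0.734), or 2.32 without control replicate 4. Rsad1, a gene of the radical SAM family, had 5.16, 4.58, 5.79, 4.96 and 5.38 with smoke, against 1.62, 2.05, 1.75, 2.31 and 1.61 in controls. The groups stood well apart, but all 5 control values lay under the receptor guide, so the difference of 3.31 ± 0.88 (limma adjusted p = 0.734) has no reliable size. Tram2, which acts at the protein channel of the endoplasmic reticulum, averaged 6.54 ± 0.65 with smoke and 4.68 ± 0.97 in controls (SD, n = 5 each), and 1 control array reached into the smoke-exposed range. Rgag4, a gene derived from a retrotransposon, averaged 8.13 ± 0.80 with smoke and 5.33 ± 2.00 in controls (SD, n = 5 each), while its other feature differed by only 0.08. Cst11, a cystatin gene, averaged 5.14 ± 1.41 with smoke and 2.46 ± 0.89 in controls (SD, n = 5 each), with 4 of the 5 control values under the guide. Gatad2a, a subunit of the chromatin remodeller NuRD, differed by 0.93 ± 0.26 at its brightest feature, but its other 2 features differed by -0.45 and -0.22.

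Among those with a negative difference, Trappc3, a subunit of the TRAPP complex of vesicle transport, had 3.74, 4.61, 2.63, 3.05 and 3.91 in smoke-exposed septa, against 5.68, 9.48, 5.57, 6.00 and 6.35 in control septa. No smoke-exposed value reached the lowest control value, and the difference was -3.03 ± 0.73 (limma adjusted p = 0.734). Suox, the mitochondrial sulfite oxidase, had 6.52, 5.85, 6.19, 5.82 and 7.25 with smoke, against 8.23, 8.00, 8.80, 8.03 and 8.10 in controls. Its control values were close together and all above the smoke-exposed ones, and both groups lay far above the guide (difference -1.91 ± 0.48). Without control replicate 4 the difference was -3.18 for Trappc3 and -1.96 for Suox. Kxd1, a subunit of the BORC complex that places lysosomes in the cell, averaged 6.33 ± 0.81 with smoke and 7.77 ± 0.20 in controls (SD, n = 5 each), without overlap. Tsr1, a factor of ribosome assembly, averaged 3.56 ± 0.86 with smoke and 6.00 ± 0.62 in controls (SD, n = 5 each), and its other feature gave -2.05 beside -2.44. Fbxl19, a CpG-binding F-box protein, averaged 6.25 ± 0.81 with smoke and 7.99 ± 0.42 in controls (SD, n = 5 each), and its other feature gave -0.97 beside -1.75. Syt7, a calcium sensor of vesicle fusion, averaged 2.41 ± 1.07 with smoke and 4.60 ± 0.75 in controls (SD, n = 5 each), while its other feature differed by 0.31 in the other direction.

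**Figure D2:**
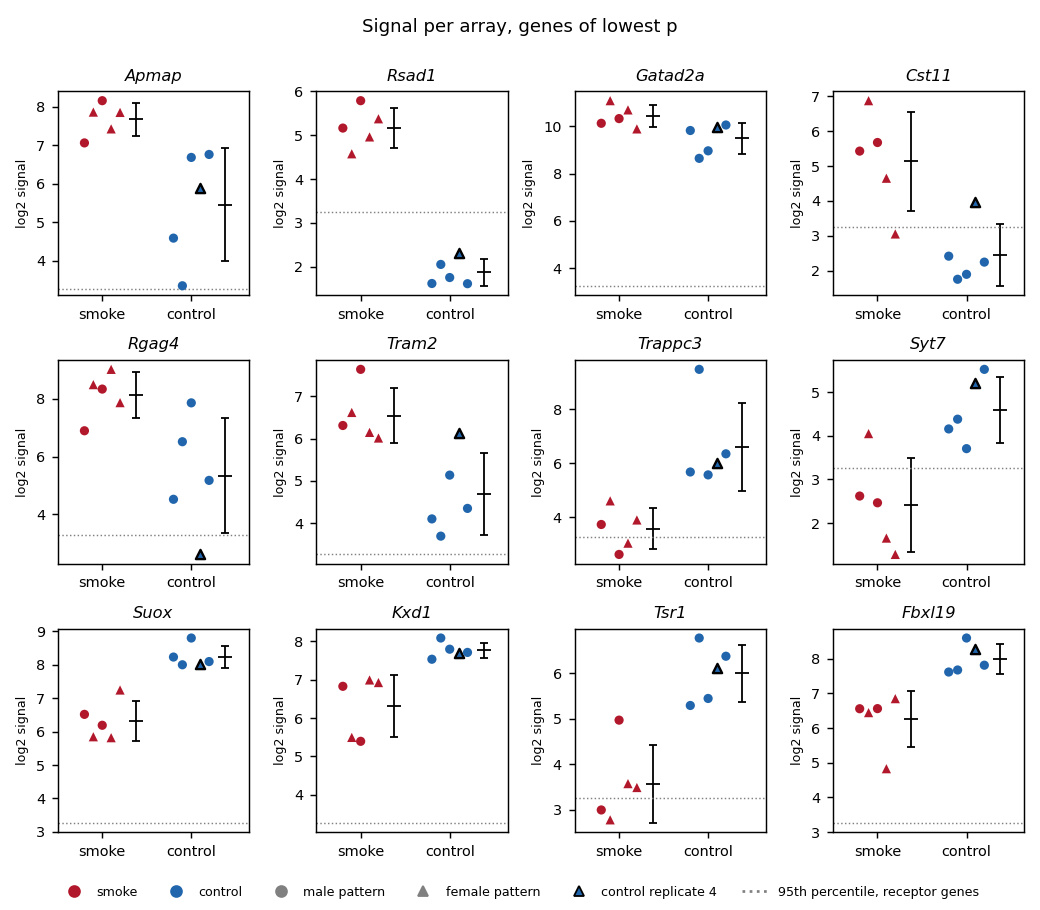
Log2 signal of each array for the 12 genes of lowest p, 6 with a positive and 6 with a negative difference, smoke-exposed arrays left and control arrays right; black bars are mean ± SD, triangles are arrays in which Xist stands above the Y-linked genes, the outlined symbol is control replicate 4, and the dotted line is 3.26. Rsad1 and Suox separate the groups fully, and the control values of Rsad1 lie under the dotted line.

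Of the aryl hydrocarbon receptor genes, Cyp1a1 had the largest positive difference. The monooxygenase had 4.80, 5.36, 8.71, 5.08 and 5.27 in smoke-exposed septa, against 5.02, 1.90, 3.75, 1.04 and 4.00 in control septa. Smoke-exposed replicate 3 stood far above the rest, 1 control array lay within the range of the other 4, and the difference was 2.70 ± 0.79 (limma adjusted p = 0.734). The control mean of 3.14 lies under the receptor guide, as does that of Nqo1, so the sizes of both differences are uncertain. Nqo1, a quinone reductase that both the aryl hydrocarbon receptor and NRF2 induce, had 5.48, 7.03, 7.13, 1.25 and 5.03 with smoke, against 4.35, 1.46, 3.98, 1.48 and 4.89 in controls. Smoke-exposed replicate 4 was lower than every control array, and the difference was 1.95 ± 0.90. Without control replicate 4 the differences were 2.18 for Cyp1a1 and 1.51 for Nqo1. Arnt, the partner of the receptor, averaged 8.66 ± 0.45 with smoke and 9.46 ± 0.26 in controls (SD, n = 5 each). Cyp2s1, a cytochrome of the same battery, averaged 2.79 ± 0.96 with smoke and 5.40 ± 1.21 in controls (SD, n = 5 each). Over the 13 measured members the median difference was -0.32, and 4 lay above 0. An unadjusted p under 0.05 was found for 2 members in each direction. Of all genes, 2.62% had a positive and 3.17% a negative difference at that threshold. In the fit without control replicate 4, 1 positive and 2 negative members passed it, against 6.79% of all genes. Nqo1 was not among these members. The counts with the sex pattern as a covariate were 2 in each direction. Ahrr, the repressor of the receptor and one of its targets, averaged 1.58 with smoke and 2.68 in controls, and Cyp1b1 averaged 1.93 with smoke and 2.63 in controls. Both genes lay under the receptor guide in both groups, so no direction is read from them.

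The promoters of Cyp1a1 and Nqo1, the members with a positive difference at an unadjusted p under 0.05, are printed here. They were picked because they differ in the core motif of the receptor. Capitals mark GCGTG, searched on both strands, as well as TGACNNNGC, the core of the antioxidant response element. The sequences are from RefSeq on GRCm38.p6 and cover 300 bases each, most of them before the start site and the rest past it, Cyp1a1 at chr9:57697363-57697662 on the plus strand and Nqo1 at chr8:107403156-107403455 on the minus strand.
Cyp1a1: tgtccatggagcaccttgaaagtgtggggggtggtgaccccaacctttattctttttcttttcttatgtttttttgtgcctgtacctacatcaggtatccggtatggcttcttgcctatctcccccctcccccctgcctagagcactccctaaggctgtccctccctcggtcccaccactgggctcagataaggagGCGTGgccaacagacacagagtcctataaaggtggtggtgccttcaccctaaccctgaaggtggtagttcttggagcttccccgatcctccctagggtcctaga
Nqo1: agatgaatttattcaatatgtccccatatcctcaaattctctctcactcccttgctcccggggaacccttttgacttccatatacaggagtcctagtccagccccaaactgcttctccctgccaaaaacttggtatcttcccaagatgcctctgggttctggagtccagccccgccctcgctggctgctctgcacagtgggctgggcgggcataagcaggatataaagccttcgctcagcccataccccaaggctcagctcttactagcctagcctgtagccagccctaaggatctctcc
The Cyp1a1 window holds 1 GCGTG, starting 54 bases before the start site, and the Nqo1 window holds neither motif. GCGTG occurred in 32.4% of 32851 promoters of the same length and in 6 of the 11 promoters found for the aryl hydrocarbon receptor list (54.5%). It occurred in 16 of the 26 promoters of the NRF2 list (61.5%) as well, so it was not particular to the receptor list. TGACNNNGC occurred in 12.4% of all promoters, and in 8 of the 26 promoters found for members of the NRF2 list (30.8%). In the receptor list 2 of the 11 promoters held it (18.2%). These are matches of letters in short windows, and no binding was measured.

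Of the 23 measured NRF2 genes, 7 differed by more than 0 and 16 by less, with a median of -0.16. Among all 20710 genes 11147 differed by less than 0. Hmox1, the haem oxygenase, had 8.51, 7.76, 7.96, 6.14 and 6.95 in smoke-exposed septa, against 8.84, 9.69, 7.65, 8.36 and 9.36 in control septa. The groups overlapped, and the difference was -1.32 ± 0.49, with -0.62 at the gene's other feature and -1.42 without control replicate 4. Keap1, the inhibitor of NRF2, averaged 7.81 ± 0.61 with smoke and 6.84 ± 0.72 in controls (SD, n = 5 each). The glutamate cysteine ligase subunits Gclc and Gclm differed by 0.67 and 0.33, and the thioredoxin reductase Txnrd1 by -0.04. Gclm averaged 2.48 with smoke and 2.15 in controls, both under the receptor guide, so no direction is read from it. Of 15 measured NADPH oxidase subunits none had an unadjusted p under 0.05, and their differences ran from -0.81 to 0.50. Noxo1 had 5.57, 3.17, 2.49, 3.27 and 2.94 with smoke, against 3.57, 4.98, 2.87, 2.41 and 1.39 in controls. Most of these values lie near the receptor guide, and without smoke-exposed replicate 1 the difference of 0.44 ± 0.63 turned to -0.08.

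Alveolar macrophage genes had the largest positive median of the leucocyte lists, 0.42 over 24 measured members. Of these members 17 lay above 0, against 9563 of all 20710 genes. Marco, a scavenger receptor of these cells, had 8.07, 8.97, 8.50, 9.28 and 8.73 in smoke-exposed septa, against 5.40, 4.09, 6.11, 8.28 and 8.30 in control septa. The smoke-exposed values were close together, control replicates 4 and 5 lay among them, and the difference was 2.28 ± 0.77, or 4.84-fold (limma adjusted p = 0.734). Atp6v0d2, a proton pump subunit of macrophage and osteoclast lysosomes, had 6.66, 7.80, 5.63, 7.21 and 5.84 with smoke, against 5.24, 5.66, 2.61, 1.42 and 3.91 in controls. Only control replicate 2 lay within the smoke-exposed range, by a narrow margin, and the difference was 2.86 ± 0.91, with 0.87 at the gene's other feature. Other members with positive differences were the lipid carrier Fabp4 (1.90), the glycoprotein Gpnmb (1.03), the mannose receptor Mrc1 (1.01) and the lectin-like Chil3 (0.86). Negative differences were those of Fabp1 (-1.10), Siglecf (-0.44) and Ear2 (-0.23), which mark the same cells, so the list was not uniform. The summed log2 signal of the list ran from 13.73 to 14.33 with smoke and from 13.02 to 14.32 in controls, and the ranges overlapped. In such bulk tissue, more cells of a type and more RNA per cell cannot be told apart. Without control replicate 4 the median was 0.23, Marco differed by 2.73 and Atp6v0d2 by 2.27.

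Of 20 lysosome genes 15 differed by more than 0 (median 0.20), and of 19 lipid uptake and cholesterol export genes 11 did (median 0.24). Lipa, the acid lipase that splits cholesterol esters in the lysosome, had 5.19, 7.08, 4.32, 6.30 and 6.31 in smoke-exposed septa, against 4.51, 4.46, 6.24, 1.52 and 4.55 in control septa. The low value of control replicate 4 carried much of the difference of 1.59 ± 0.68, which was 0.90 without it. The lipid receptor Olr1 (0.98), the prosaposin gene Psap (0.79) and the hexosaminidase gene Hexa (0.87) did not reach an unadjusted p of 0.05. Olr1 averaged 2.38 with smoke and 1.40 in controls, both under the receptor guide, so no direction is read from it. Monocyte and interstitial macrophage genes had a median of 0.06, and Cd14, the co-receptor for lipopolysaccharide, averaged 6.41 ± 0.61 with smoke and 7.99 ± 1.23 in controls (SD, n = 5 each).

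Neutrophil genes lay on the other side of 0. Of 17 measured members 15 differed by less than 0, against 11147 of all 20710 genes. The list median was -0.61, with no member at an unadjusted p under 0.05. The largest negative differences were those of the collagenase Mmp8 (-1.46), Wfdc21 (-1.25), the histidine decarboxylase Hdc (-1.04) and the calprotectin subunit S100a8 (-0.94). The summed log2 signal of the list ran from 15.30 to 15.98 with smoke and from 15.52 to 16.65 in controls. Without control replicate 4 the median was -0.65 and 6 members had an unadjusted p under 0.05, against 6.79% of all genes in that fit, and with the sex pattern as a covariate the median was -0.33 and none did.

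Ligands of inflammation had mostly negative differences too, as had 11147 of all 20710 genes. Of 33 chemokine and cytokine genes 23 lay under 0 (median -0.26), 3 of them at an unadjusted p under 0.05, against 3.17% of all genes with a negative difference. With the sex pattern as a covariate 1 of the negative differences had such a p. Ccl9 had 9.85, 7.97, 11.31, 10.24 and 9.23 in smoke-exposed septa, against 10.51, 10.93, 12.57, 10.62 and 10.59 in control septa, a difference of -1.32 ± 0.53 with overlapping groups. The neutrophil and monocyte chemokines Ccl4 (-1.93 ± 0.81), Cxcl1 (-1.32 ± 1.34), Ccl2 (-1.16 ± 0.83) and Cxcl2 (-0.85 ± 0.90) and the cytokine Il1b (-1.05 ± 0.51) were on the same side. Among them only Ccl4 and Il1b had an unadjusted limma p under 0.05. The interferon-induced chemokines differed by 0.94 for Cxcl9 and by 1.03 for Cxcl10. Of 20 acute phase and alarmin genes 17 lay under 0 (median -0.50), among them Tlr2 (-1.09), Saa3 (-1.05) and Myd88 (-1.30). The 10 features of Myd88 all gave negative differences between -1.43 and -0.74. Orm1 differed by 1.05 in the other direction at an unadjusted p under 0.05, with both group means under the receptor guide. Of the acute phase list 1 member had a negative difference at an unadjusted p under 0.05, against 3.17% of all genes. Without control replicate 4 there were 6, against 832 of 20710 genes. S100a8, S100a9 and Lcn2 are on the neutrophil list too. Interferon stimulated genes had a median of 0.05, with Cmpk2 at 1.78 and Rsad2 at 1.72. Antigen presentation genes had differences of -0.40 to 0.24 in 16 members.

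**Figure D3:**
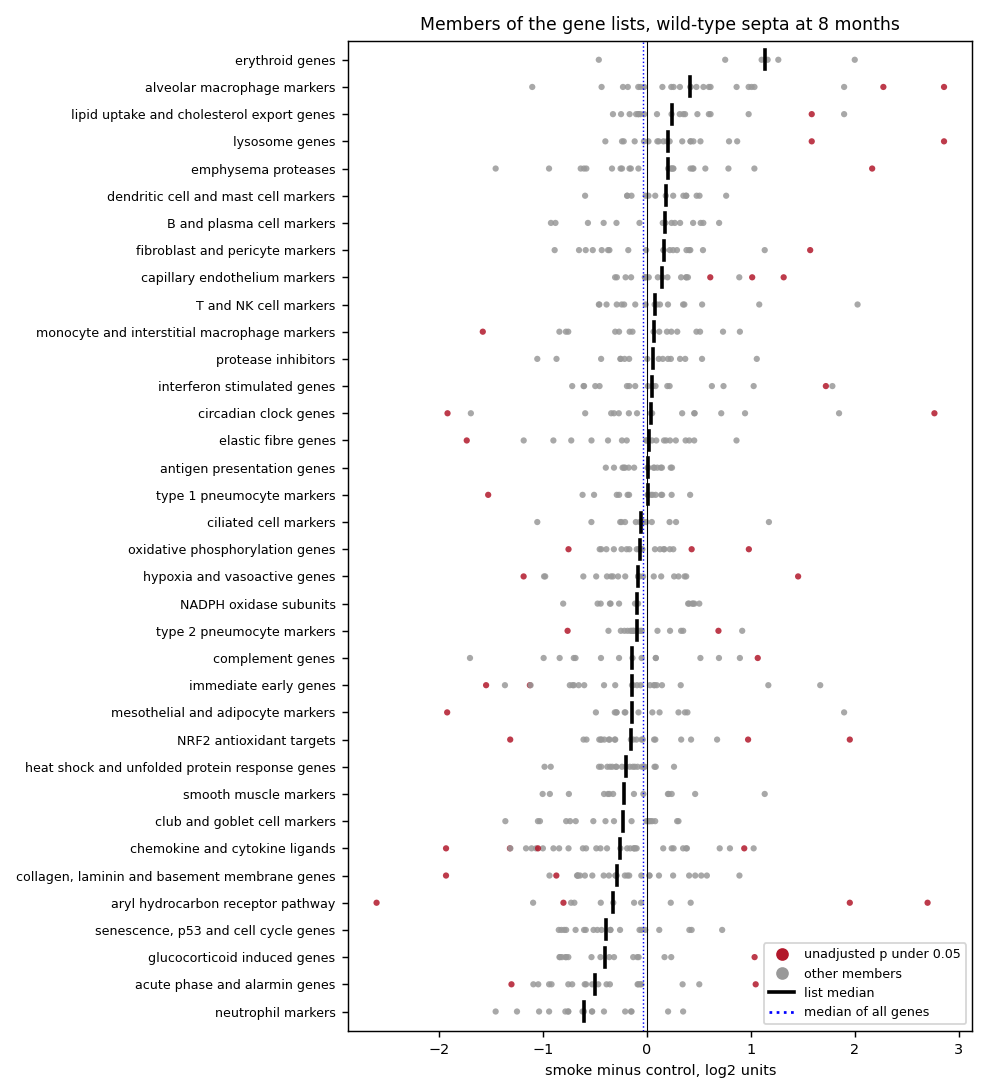
Difference of smoke minus control (x axis, log2 units) of each measured member of 36 gene lists (points), sorted by list median (black bars), with members at an unadjusted p under 0.05 in red and the median of all genes as a dotted line. Erythroid and alveolar macrophage genes have the highest medians (1.13 and 0.42) and neutrophil genes the lowest (-0.61).

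Across all lists, 614 of 652 members were measured, and 40 of these had an unadjusted p under 0.05 (6.51%), against 5.79% of all genes. The share of the list members is thus close to that of all genes.

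Among proteases and matrix genes, Plau, the urokinase that starts plasmin formation, had 5.90, 7.45, 8.27, 8.18 and 7.59 in smoke-exposed septa, against 5.13, 6.67, 2.73, 6.01 and 6.01 in control septa. Smoke-exposed replicate 1 lay within the control range and the other 4 above every control array, and the difference was 2.17 ± 0.66 (limma adjusted p = 0.734), or 2.34 without control replicate 4. Mmp12, the macrophage elastase that emphysema in smoke-exposed mice is known to need, had 5.50, 7.33, 2.41, 2.49 and 6.14 with smoke, against 1.27, 6.43, 5.44, 7.55 and 2.00 in controls. Both groups held high and very low arrays, and the difference was 0.23 ± 1.21, with a change of sign in 5 of the alternatives tried. The protease list had a median of 0.20, with 12 of 23 members above 0, but the median was -0.01 without control replicate 4 and -0.05 with the sex pattern as a covariate.

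Collagen, laminin and basement membrane genes, which include interstitial collagens, had a median of -0.29, with 18 of 27 members below 0. Among all 20710 genes 11147 lay below 0. Lamc3, a laminin chain, had 3.58, 3.77, 3.38, 2.32 and 2.51 in smoke-exposed septa, against 5.76, 4.99, 4.79, 5.03 and 4.66 in control septa. Every smoke-exposed array was lower than every control array, and the difference was -1.93 ± 0.58, although the smoke-exposed mean of 3.11 lay under the receptor guide. Without control replicate 4 it was -1.94. Hspg2, the basement membrane proteoglycan perlecan, averaged 8.32 ± 0.90 with smoke and 9.19 ± 0.43 in controls (SD, n = 5 each). Elastin (Eln) differed by -1.19 and fibrillin 1 (Fbn1) by -0.90, while the elastic fibre list as a whole had a median of 0.02. The lysyl oxidase family gene Loxl4 differed by -1.74 at the kept feature and by 0.71 at its other feature.

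The type 1 and type 2 pneumocyte lists had medians of 0.01 and -0.10, and the surfactant genes Sftpa1, Sftpb, Sftpc and Sftpd differed by -0.19 to -0.05. Within type 2 genes, the phosphate transporter Slc34a2 averaged 9.55 ± 0.38 with smoke and 8.87 ± 0.24 in controls (SD, n = 5 each), whereas the surfactant lipid transporter Abca3 averaged 7.87 ± 0.65 with smoke and 8.63 ± 0.36 in controls. Krt7 differed by -1.53 ± 0.56. Capillary genes had a median of 0.15, with 12 of 19 members above 0 and 7 below, the lowest at -0.31. An unadjusted p under 0.05 was found for 3 members, all 3 positive, against 2.62% of all genes. The median was 0.30 without control replicate 4. With the sex pattern as a covariate it was 0.16, and 2 members had such a p. Emcn, the endothelial sialomucin endomucin, had 8.12, 7.44, 6.94, 6.30 and 5.93 in smoke-exposed septa, against 4.43, 6.23, 5.39, 5.73 and 6.37 in control septa. Smoke-exposed replicates 4 and 5 lay within the control range, and the difference was 1.32 ± 0.51, or 1.34 without control replicate 4. Kdr, the main receptor for VEGF, averaged 9.43 ± 0.73 with smoke and 8.42 ± 1.02 in controls (SD, n = 5 each). This kept feature gave the highest difference of its 11 features, 1.01, and the other 10 gave only 0.25 to 0.67. Kitl, the ligand of the KIT receptor, differed by 0.61.

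The 6 measured erythroid genes, among them the globin genes Hba-a1 (1.16) and Hbb-bs (1.10) and Alas2 (2.00), the first enzyme of haem synthesis in red cells, had a median of 1.13, with 5 above 0, Slc4a1, the anion exchanger of red cells, at -0.46, and none at an unadjusted p under 0.05. Their summed log2 signal ran from 12.34 to 15.11 with smoke and from 11.23 to 14.30 in controls. Smooth muscle genes had a median of -0.23, with 5 of 14 members above 0, Actg2 at -0.94 and Hhip at 1.13. Mesothelial and adipocyte genes had a median of -0.15, with 6 of 14 above 0 and Fabp4 at 1.90, and Msln, a marker of the pleural mesothelium, averaged 2.45 ± 0.69 with smoke and 4.38 ± 1.84 in controls (SD, n = 5 each). The part of blood content or of trimmed tissue in the other differences was not tested.

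**Figure D4:**
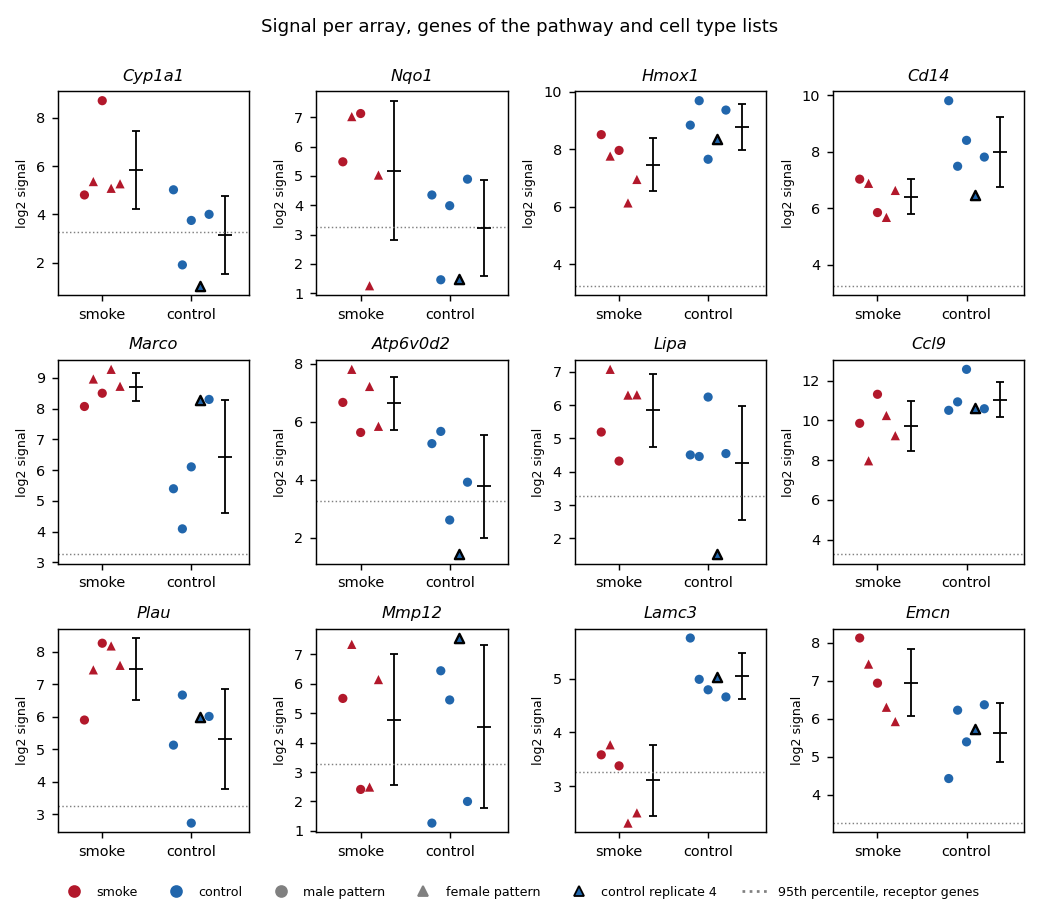
Log2 signal of each array for 12 genes of the pathway and cell type lists, smoke-exposed arrays left and control arrays right; symbols, bars and dotted line as in the plot of the genes of lowest p. Marco is close together with smoke (8.07 to 9.28) and spread in controls (4.09 to 8.30), Lamc3 does not overlap, and Mmp12 is spread in both groups.

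Of 21 heat shock and unfolded protein response genes 18 lay below 0 (median -0.21). Of 16 glucocorticoid induced genes 13 did (median -0.41), with Ddit4, a stress-induced brake on mTOR, at 1.04. Among all 20710 genes 11147 lay below 0. Immediate early genes had a median of -0.14, with Ier2 at -1.55 and Fos at -1.13. The median was -0.57 without control replicate 4 and -0.05 with the sex pattern as a covariate. The 10 features of Fos gave differences of -1.28 to -1.04, and Fos was at -0.64 with the sex pattern as a covariate. Dbp, an output gene of the circadian clock, had 9.25, 9.65, 10.33, 9.95 and 9.54 in smoke-exposed septa, against 8.30, 4.54, 4.38, 7.98 and 9.67 in control septa. The smoke-exposed arrays were alike and the controls ran over a wide range, and the difference was 2.77 ± 1.07, or 3.02 without control replicate 4. Nfil3, which represses the genes that DBP activates, had 8.34, 4.25, 8.56, 6.49 and 7.96 with smoke, against 9.72, 8.46, 9.44, 8.36 and 9.21 in controls, a difference of -1.92 ± 0.61, or -2.09 without control replicate 4. Other clock genes of large difference were Hlf (1.85) and Arntl (-1.70). The hour of tissue collection is not given in the labels. Respiratory chain genes had a median of -0.07, with Ndufs1 at 0.98 and Sdhb at -0.76.

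The same genes were then read in other comparisons. The fit that named them took its spread from all 39 septa arrays, those at 3 months and of knockouts included. The p-values of these genes in those septa are therefore not independent of the naming. Septa of wild-type mice at 3 months (5 smoke-exposed, 4 control), septa of Noxo1 knockout mice at 8 months (5 and 5) and vessels of the wild-type mice at 8 months (4 and 5) have their own control arrays, the vessels coming from the same mice. Alone, these comparisons gave 1 gene (0.00483%) past adjustment in wild-type septa at 3 months and none in the other 2, and 1054 (5.09%), 1357 (6.55%) and 609 (2.94%) at an unadjusted p under 0.05. In knockout septa 2.96% of all genes had a positive and 3.6% a negative difference at that threshold. Sex patterns were unequal there as well. Knockout septa at 8 months had the female pattern in 4 of 5 smoke-exposed and 0 of 5 control arrays, and wild-type septa at 3 months in 0 of 5 smoke-exposed and 1 of 4 control arrays. Wild-type vessels at 8 months had it in 3 of 4 smoke-exposed and 0 of 5 control arrays. The knockout control septa include the array of mouse 7, and the wild-type control vessels that of mouse 29.

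Of the 12 genes of lowest p, 7 had the same direction in knockout septa at 8 months, 6 in wild-type septa at 3 months and 4 in wild-type vessels. Trappc3 differed by 0.46 ± 0.73 in knockout septa, Suox by 0.17 ± 0.48, Kxd1 by 0.00 ± 0.37 and Tsr1 by 0.52 ± 0.63. Apmap differed by 0.24 ± 0.58 in knockout septa and by -0.86 ± 0.62 in wild-type septa at 3 months. Rsad1 differed by 1.27 ± 0.88 in knockout septa and by -2.11 ± 0.93 in wild-type septa at 3 months. Of these 12, Rgag4 alone had an unadjusted p under 0.05 in the same direction in knockout septa (2.01 ± 0.77).

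In knockout septa at 8 months 32 of the 39 named list members had the same direction (82.1%). The share was 54.6% for all genes and 63.2% for the 1199 genes. In that direction 12 of the 39 had an unadjusted p under 0.05 (30.8%), against 4.05% of all genes and 7.67% of the 1199 genes. None of the 39 had such a p in the opposite direction. The 12 were Cyp1a1 (1.59 ± 0.79), Nqo1 (1.90 ± 0.90), Atp6v0d2 (1.88 ± 0.91), Marco (2.47 ± 0.77), Plau (1.42 ± 0.66), Slc34a2 (1.00 ± 0.31), Ndufs1 (1.25 ± 0.47), Cd14 (-1.76 ± 0.64), Fos (-1.49 ± 0.53), Ier2 (-1.59 ± 0.67), Lamc3 (-2.18 ± 0.58) and Sdhb (-0.78 ± 0.35). The alveolar macrophage list had 9 of 24 members at an unadjusted p under 0.05 in knockout septa, against 6.55% of all genes there and 2 of 24 members in wild-type septa, with a median of 0.62. The lists were chosen with earlier results of these arrays known, and the female pattern was more frequent with smoke at 8 months in both genotypes, so these counts are a description. In wild-type septa at 3 months 22 of the 39 had the same direction (56.4%), against 50.8% of all genes. In wild-type vessels at 8 months 30 did (76.9%), against 51.2%, with Plau at 4.69 ± 1.36, Dbp at 4.13 ± 1.39 and Cyp1a1 at 2.36 ± 0.87.

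**Figure D5:**
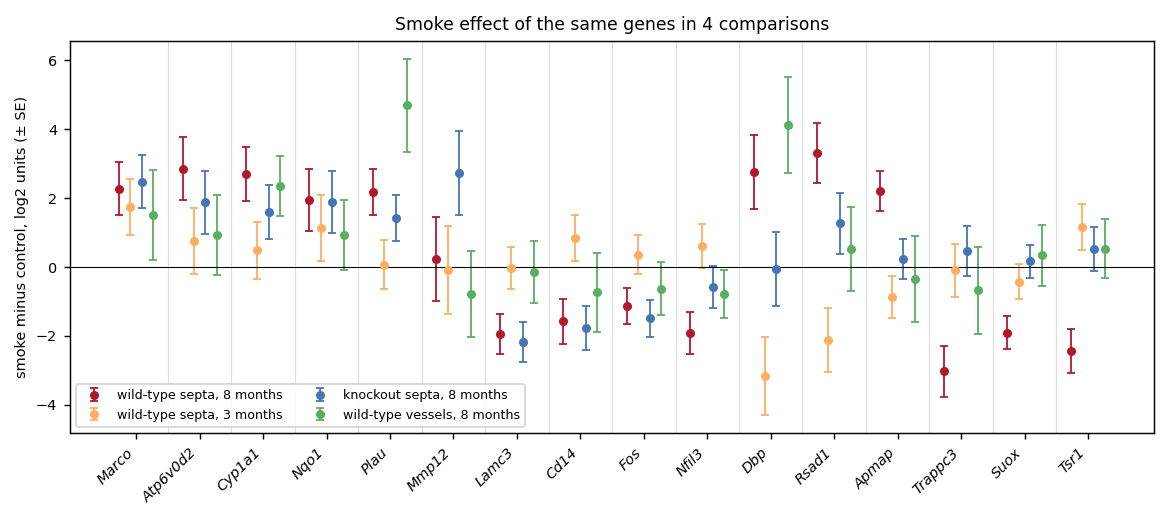
Difference of smoke minus control (y axis, log2 units, ± SE) of 16 genes in wild-type septa at 8 months, wild-type septa at 3 months, knockout septa at 8 months and wild-type vessels at 8 months. Marco, Cyp1a1 and Nqo1 are positive in all 4 comparisons, whereas Dbp is positive at 8 months in wild-type tissue and negative (-3.16) in wild-type septa at 3 months.

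The differences between comparisons were tested directly, as interactions in limma. For smoke at 8 against 3 months in wild-type septa 0 genes passed adjustment (lowest adjusted p 0.552) and 1061 had an unadjusted p under 0.05 (5.12%). Rsad1 had an interaction of 5.41 ± 1.28 (limma adjusted p = 0.552) and Dbp one of 5.92 ± 1.57 (limma adjusted p = 0.627), both with opposite signs at the 2 times. For wild-type against knockout septa at 8 months 0 genes passed (lowest adjusted p 0.998), with 899 at an unadjusted p under 0.05 (4.34%). Trappc3 differed between the genotypes by -3.49 ± 1.03 and Tsr1 by -2.96 ± 0.89, and Marco differed by -0.20, Nqo1 by 0.05 and Lamc3 by 0.24. For septa against vessels 0 genes passed, with 804 at an unadjusted p under 0.05 (3.88%). A smoke effect that is larger in wild-type septa at 8 months than in the other groups was thus not shown for any gene.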

How the data were processed

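RNA of the 10 arrays was isolated with RNeasy Micro, amplified with Ovation PicoSL WTA V2 and labelled with Cy5, per the labels' protocols. The deposited values are log2 signals, which the authors normalized so that the quartiles differ by at most 0.0024 between arrays; the scale was read from the values. limma is named in the submitters' processing notes, and its settings and any background correction were not given in the sources used here. Precision is limited by the number of arrays.

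Of 62976 features, 31465 have a gene symbol and 31511 have none, and 671 with a missing value were left out. Symbols came from the platform annotation, 29036 features were matched by accession to RefSeq, and 2933 symbols were updated. The feature of highest mean stood for each of the 6007 genes with several features. The members, gene lists and tests were chosen with earlier results of these data known.

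All 39 septa arrays were fitted in limma 3.58.1 (R 4.3.3) by 8 group means, eBayes with a trend, and Benjamini-Hochberg adjustment over 20710 genes at 0.05. Septa against vessels used all 76 arrays with mouse as a random block (consensus correlation 0.0262). A pair of vessel arrays numbered mouse 25 was averaged in the fit of vessels. Exact permutation p-values over 252 splits were adjusted over all genes instead of over the named genes as planned, since those were chosen by p in the same contrast. The alternatives tried were quantile normalization, a filter at the 25th percentile of signal, all features of a gene averaged, array weights, the fit without a trend, only the arrays compared, a mouse block over all arrays, the replicate number as a block, the sex pattern as a covariate and leaving out each array. A fit without the array of mouse 29 and with the sex pattern was added after the data were seen. Deviations of smoke-exposed and control arrays with the same replicate number correlated at -0.012 to 0.075, and those with different numbers at -0.096 to 0.055. The ranges overlap, and these values do not settle whether the numbers pair the mice. The scripts were tested on simulated data. Promoters were matched by symbol to RefSeq windows, for 11 of 13 members of the aryl hydrocarbon receptor list and 20 of 23 of the NRF2 list, some with several start sites. Python 3.11.15 with numpy 2.4.6, scipy 1.17.1, pandas 2.3.3 and matplotlib 3.10.9 was used for tables and figures.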

Additional observations from a re-analysis of the deposited data

Results flagged for a closer look

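In 10 of 106 groups of 5 arrays examined over the named genes, the highest or lowest array stood apart from the other 4 by more than Dixon's critical value, and chance gives about 1 such group in 20. Among smoke-exposed arrays, Cyp1a1 was at 8.71 in replicate 3 with the others at 4.80 to 5.36, and Noxo1 was at 5.57 in replicate 1 with the others at 2.49 to 3.27. Fbxl19 was at 4.83 in replicate 4 with the others at 6.45 to 6.85, and Loxl4 was at 4.31 in the same replicate with the others at 1.78 to 2.35. Keap1 was at 6.74 in smoke-exposed replicate 1 with the others at 7.84 to 8.23, and at 5.58 in control replicate 5 with the others at 6.96 to 7.38. Among control arrays, Trappc3 was at 9.48 in replicate 2 with the others at 5.57 to 6.35, and Suox was at 8.80 in replicate 3 with the others at 8.00 to 8.23. Ccl9 was at 12.57 in control replicate 3 with the others at 10.51 to 10.93, and Slc34a2 was at 9.29 in control replicate 4 with the others at 8.68 to 8.84.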

How the results depend on the processing

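The count of genes past adjustment was 0 under all 20 alternatives for smoke in wild-type septa at 8 months and under all 88 over the 4 comparisons tested. The lowest adjusted p ran from 0.0681, without the array of mouse 29 and with the sex pattern as a covariate, to 1.00. The count at an unadjusted p under 0.05 was 601 in the fit over all arrays with a mouse block, against 1199; the cause was not tested. Leaving out each array in turn gave 1014 to 1564. With the replicate number as a block, 0 genes passed and 1217 had an unadjusted p under 0.05, against 852, 992 and 938 for the differences from knockout septa, from 3 months and from vessels. Of 1059 alternative values of named genes 6 changed sign. Few changes were likely, since a low p had chosen most of these genes. Leaving out each array, Noxo1 ran from -0.076 (without smoke-exposed replicate 1) to 0.927 (without control replicate 2). Mmp12 was at -0.261 with the sex pattern as a covariate, and it ran from -0.585 without control replicate 1 to 0.985 without control replicate 4, and was negative as well without smoke-exposed replicates 2 and 5 (-0.406 and -0.107) and control replicate 5 (-0.401). Of 720 list medians 3 moved past the spread between arrays, B and plasma cell genes to -0.19 without control replicate 5, proteases to -0.11 without smoke-exposed replicate 5 and hypoxia genes to -0.30 without control replicate 2. Genes near 3.26, the guide to low signal, have uncertain sizes.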
